A study of Mus musculus with 4 samples.

Results

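This section describes the messenger RNAs of the cytosolic ribosomal proteins in mouse CD8+ T cells made in culture and in CD8+ cells taken from the thymus. Members were chosen by name: every non-control probe whose gene name is Rpl or Rps followed by a digit, or Rplp0, Rplp1, Rplp2 or Rpsa, without the Rps6k kinases. This gave 137 probes of 82 genes, out of 41174 probes and 27962 gene names on the array. Of the 137 probes, 57 belong to 32 genes of the small (40S) subunit, 78 to 49 genes of the large (60S) subunit with its stalk, and 2 to Rps19bp1, which matches by name only.

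A ribosome pairs a small subunit, which reads the messenger, with a large subunit, which joins amino acids, and each holds ribosomal RNA and a set of proteins made in the cytoplasm and assembled in the nucleolus. The genes are scattered over the genome, yet their messengers are made in near balance and are among the most abundant in dividing cells. Their messengers typically begin with a run of C and T bases, the terminal oligopyrimidine tract, through which the growth kinase mTOR controls their translation. In T cells, ribosome production rises when cells leave rest and divide. Ribosomal protein genes also have many processed copies in the mouse genome, and a probe may read RNA of a near-identical copy as well as that of its gene.

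All cells were of C57Bl/6 origin, untreated, and sorted by flow cytometry as CD8+ with high TCR beta. The in vitro-derived cells grew for 35 days from lineage-negative, Sca1+ CD117+ marrow cells of donors aged 6 to 8 weeks, on OP9-DL1 stroma (a line that presents the Notch ligand Delta-like 1) with Flt3 ligand and IL7, and the thymic cells came from donors aged 4 to 5 weeks. There were 2 preps of each kind, and each of the 4 arrays paired 1 thymic prep, labelled with Cy3, with 1 in vitro prep, labelled with Cy5. Array 1 held thymic prep 1 with in vitro prep 1, array 2 thymic prep 1 with in vitro prep 2, array 3 thymic prep 2 with in vitro prep 1, and array 4 thymic prep 2 with in vitro prep 2. The dyes were never swapped, so that the dye, the donors' age and the kind of cell cannot be told apart. The labels do not say whether the preps came from separate animals or cultures. The p-values and standard errors use the spread between these preps, moderated by limma, that is, pulled toward the spread typical of all tested probes. They measure no wider spread.

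On all probes, 14254 of 27272 tested probes (52.3%) passed the test between the kinds of cells. The markers of CD8 T cells were bright in both kinds, with a median log2 intensity of 14.46 over 18 tested probes, of which 3 were called higher and 10 lower in the in vitro-derived cells. Markers of stromal cells were higher in the in vitro-derived cells in 14 of 16 tested probes, of which 7 were well above background on every array in both channels. The other 7 passed the filter only through Cy5, which fixed their direction. The markers' summed normalized intensity was 2613 to 2735 in the thymic preps and 12254 to 15283 in the in vitro preps, and no probe of the stromal genes Dcn and Lum was called well above background on more than 1 array of a channel. The share of stromal RNA in any ribosomal protein value was not tested. No erythroid or dendritic marker was called, 1 of 6 tested B cell marker probes was called higher and 1 lower, and 3 of 8 myeloid ones were called higher and 2 lower. The B cell probe called higher and 2 of the 3 myeloid ones passed the filter only through Cy5, which likewise fixed their direction.

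Growth control of these genes is known to act at the start of the messenger, so the 30 bases around the transcription start (15 on each side, RefSeq, GRCm38.p6, 5′ to 3′ on the gene's strand) are shown for genes whose probes the results below turn on, with the longest unbroken run of C and T in capitals.
Rpl7a (chr2:26910792-26910821, + strand): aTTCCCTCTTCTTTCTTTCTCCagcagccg
Rpl27a (chr7:109519180-109519209, + strand): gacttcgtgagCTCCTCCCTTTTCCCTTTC
Rps18 (chr17:33955651-33955680, - strand): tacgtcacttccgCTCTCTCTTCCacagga
Rplp2 (chr7:141447636-141447665, + strand): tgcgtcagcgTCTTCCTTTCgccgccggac
Rps12 (chr10:23787195-23787224, - strand): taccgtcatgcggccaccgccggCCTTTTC
Rpl11 (chr4:136053379-136053408, - strand): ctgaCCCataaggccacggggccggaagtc
Rps3 (chr7:99483695-99483724, - strand): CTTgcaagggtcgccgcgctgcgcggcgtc
Rps15 (chr10:80292416-80292445, + strand): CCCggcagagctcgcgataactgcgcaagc
RefSeq promoters were found for 62 of the 82 genes, with 73 start sites. A run of at least 8 C or T bases lay in this window at 26 of the 73 starts (35.6%), against 12.0% of 32851 starts of all genes. The letters CGGAAG, or CTTCCG on the other strand, which overlap such runs in part, lay within the 300-base promoter at 44 of the 73 starts (60.3%), against 16.9% of all starts. These matches describe the letters only. The brightest probe of the 26 genes with a run had a median log2 difference of 0.18, with 12 called higher and 3 lower, and that of the 36 genes without one had a median of 0.19, with 18 called higher and 4 lower. In the lines above, Rpl7a and Rpl27a have long runs and Rpl11, Rps3 and Rps15 short ones.

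With loess normalization, a curve of the ratio against brightness was fitted on each array and subtracted. Ribosomal protein messengers were then moderately higher in the in vitro-derived cells on the brightest probes and lower on a set of dimmer ones. Other bright probes were also higher: at a log2 intensity of 16 and over the members' median was 0.27 and that of non-member probes 0.22. There 60.5% of members and 50.4% of non-member probes were called higher. Of the 24 member probes called lower, 8 stood above 0 with spike-in centring and 16 with median centring. A test was made for 135 of the 137 probes, those that the scanner software marked as well above background in Cy3 on every array or in Cy5 on every array, and all 135 were so marked in both. With loess 51 of the 135 were called higher (37.8%) and 24 lower (17.8%) at an adjusted p under 0.05, against 26.7% higher and 25.6% lower over all tested probes, and 60 were not called. The median log2 difference, in vitro-derived minus thymic, was 0.12, against 0.03 over all tested probes. A difference of at least 1.5-fold was seen in 18 of the 135 probes, against 6391 of all 27272 tested probes. On all 4 arrays 70 probes lay above 0 and 40 below it, and 25 lay on both sides. The size of the group's difference rested on the scaling: with each array shifted to its spiked-in control transcripts, or to its median, the members' median was 0.68 or 1.28 and that of all tested probes -0.23 or 0.37. Relative to all probes the members stood 0.09 higher with loess and 0.91 higher under these shifts, which by construction give the same gap.

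**Figure D1:**
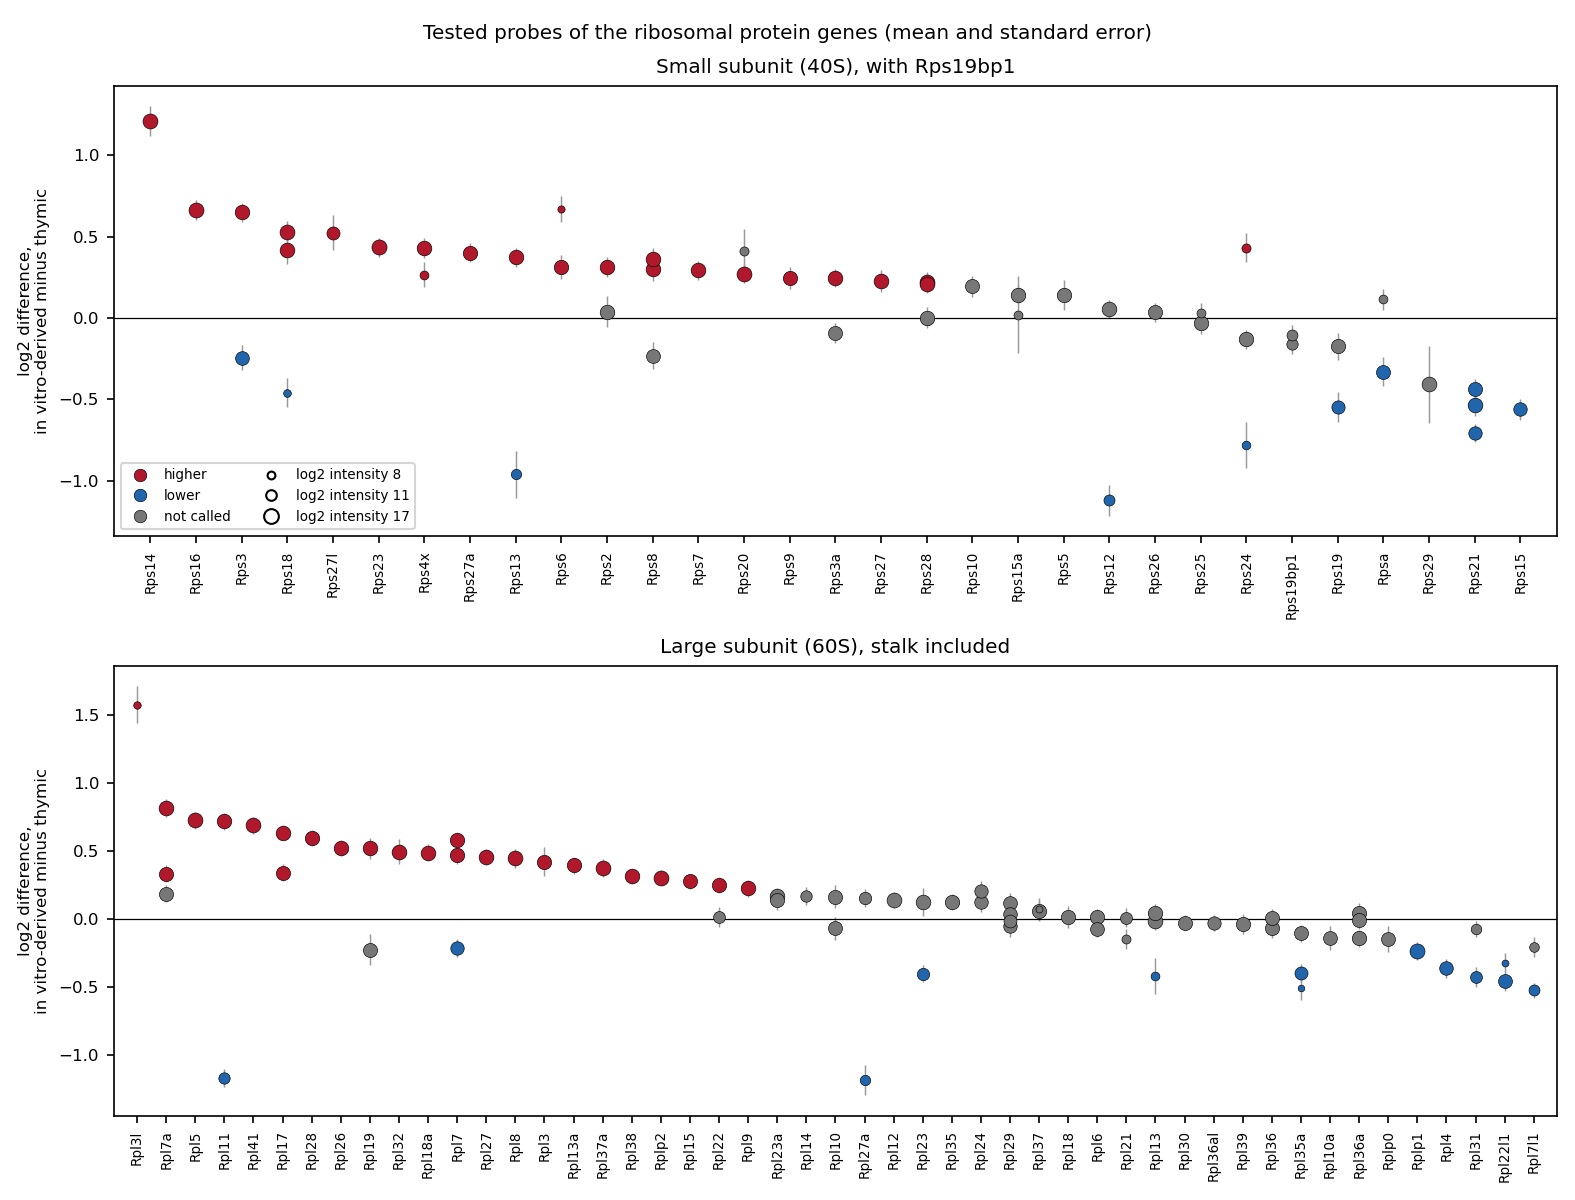
Log2 difference (vertical axis, in vitro-derived minus thymic, after loess) of 132 tested ribosomal protein probes, by gene, with bars for the moderated standard error over 2 preps of each kind. Point size shows the probe's mean log2 intensity and colour the call. Most large points lie near or above 0, and the lowest points, near -1, are smaller ones of Rps12, Rps13, Rpl11 and Rpl27a; with spike-in or median centring most points lie above 0.

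Among the 55 tested small subunit probes 26 were called higher (47.3%) and 11 lower (20.0%), with a median log2 difference of 0.20. Among the 78 tested large subunit probes 25 were called higher (32.1%) and 13 lower (16.7%), with a median of 0.05. Over all tested probes 26.7% were called higher and 25.6% lower. The subunits were not matched for brightness, with median log2 intensities of 16.43 (small, untested probes included) and 16.09 (large). By gene, 37 of the 82 genes had probes called higher and none lower, 14 had probes called lower and none higher, 6 had both, and 25 had no call. Over all 18650 genes with tested probes 28.2% had probes called higher and none lower, 26.9% lower and none higher, and 43.6% no call. Taking only the brightest probe of each gene, 42 genes were called higher (51.2%), 8 lower (9.76%) and 32 not, with a median of 0.22. The median log2 intensity of these probes was 16.57. Non-member probes at a log2 intensity of 16 and over also had a median of 0.22, with 50.4% called higher and 21.3% lower.

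The highest of the bright small subunit probes was that of Rps14, a protein of the small subunit's platform whose human counterpart is lost in the 5q- syndrome. It read 1.03, 1.32, 1.18 and 1.31 (log2 ratio) on arrays 1 to 4. Every array stood above the other bright members, and both arrays of in vitro prep 2 read higher than those of prep 1. The difference was 1.21 ± 0.09 (moderated SE, 2 preps of each kind), a 2.32-fold higher signal, with a limma adjusted p of 0.000363. Rps16, a small subunit protein whose tail reaches the decoding site, read 0.67, 0.59, 0.70 and 0.70, a difference of 0.66 ± 0.06 (adjusted p 0.00077). Rps23, which lies at the decoding centre and was the brightest member at a log2 intensity of 17.55, read 0.45, 0.43, 0.42 and 0.44 and differed by 0.43 ± 0.06 (adjusted p 0.00245). For these genes no array read at or below 0.

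Of the other brightest small subunit probes, that of Rps20 differed by 0.27 ± 0.06 (adjusted p 0.0125) and the brightest of Rps18 by 0.53 ± 0.07 (adjusted p 0.00283). Both were called higher. Rps6, the substrate of the S6 kinases, was called higher on its bright mRNA probe, at 0.31 ± 0.08 (adjusted p 0.0194), and on a dim probe designed on a cDNA clone. The dim probe read 0.56, 0.71, 0.62 and 0.80 at a log2 intensity of 7.50 and differed by 0.67 ± 0.08 (adjusted p 0.00178).

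Some small subunit messengers were lower on loess-normalized values. Rps21 was called lower on each of its 3 probes: the brightest read -0.49, -0.46, -0.56 and -0.62 and differed by -0.53 ± 0.07 (adjusted p 0.00217), a probe on a clone differed by -0.71 ± 0.06 (adjusted p 0.00048), and the other mRNA probe by -0.43 ± 0.06 (adjusted p 0.00291). Rps15, which lies near the site where charged tRNA enters, read -0.64, -0.55, -0.57 and -0.48 and differed by -0.56 ± 0.07 (adjusted p 0.0017). Rps19, the protein most often mutated in Diamond-Blackfan anaemia, read -0.65, -0.40, -0.68 and -0.47 on its mRNA probe and differed by -0.55 ± 0.09 (adjusted p 0.00576). All arrays of these probes lay below 0. Another, brighter Rps19 probe, designed on a clone, was not called at -0.17 ± 0.08 (adjusted p 0.144), and it stood 0.38 ± 0.06 above the mRNA probe (adjusted p 0.00858). The direction depended on the scaling. With spike-in centring the brightest Rps21 probe stood at 0.21, Rps15 at -0.09 and Rps19 at -0.12, so that Rps21 turned, and with median centring all turned, at 0.81, 0.51 and 0.48. Under each of these scalings all of them stood below the members' own median.

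Rpsa, a small subunit protein also known as the laminin receptor precursor, had probes on either side of 0. The bright one read -0.45, -0.21, -0.43 and -0.22 and was called lower at -0.33 ± 0.09 (adjusted p 0.0305), with 0.26 under spike-in centring, while the dim one read 0.14, 0.16, 0.04 and 0.12 and was not called, at 0.12 ± 0.06. Rps29 had the widest spread of the bright members: it read -0.11, -1.20, -0.15 and -0.17, so that array 2 alone lay far below the others, and its difference of -0.41 ± 0.24 was not called (adjusted p 0.213).

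In the large subunit the highest bright probe was 1 of 3 of Rpl7a, whose introns carry small nucleolar RNAs. It read 0.79, 0.77, 0.89 and 0.82 and differed by 0.82 ± 0.06, or 1.76-fold (adjusted p 0.000421). The other Rpl7a probes on the same messenger differed by 0.33 ± 0.06 (adjusted p 0.0072) and 0.19 ± 0.06 (adjusted p 0.055), so that the gene's probes kept 1 direction and not 1 size.

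Rpl5 and Rpl11, which with 5S rRNA form a particle that can bind Mdm2 and stabilise p53, were both called higher on their mRNA probes. Rpl5 read 0.66, 0.75, 0.71 and 0.79 and differed by 0.73 ± 0.06 (adjusted p 0.000627). Rpl11 read 0.73, 0.68, 0.76 and 0.70 and differed by 0.72 ± 0.06 (adjusted p 0.000519). Their arrays lay at like heights and far from 0. Rpl41, the smallest ribosomal protein, read 0.67, 0.67, 0.65 and 0.76 and differed by 0.69 ± 0.06 (adjusted p 0.000619). Rpl17, which lines the exit of the peptide tunnel, read 0.64, 0.64, 0.63 and 0.64 on its brighter probe and differed by 0.64 ± 0.06 (adjusted p 0.000664). Rpl37a, among the 10 brightest members, differed by 0.38 ± 0.07 (adjusted p 0.00696). With spike-in centring, which raised bright members and non-members alike, these probes stood at 1.52, 1.43, 1.46, 1.37 and 1.17.

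The stalk proteins, which recruit elongation factors to the large subunit, did not share a direction with loess. Rplp0, the base of the stalk, read -0.28, -0.04, -0.25 and -0.01 and was not called at -0.15 ± 0.10 (adjusted p 0.253); its probe is placed by the array design on another chromosome than the gene, the 1 such case among 135 placed members. Rplp1 read -0.20, -0.35, -0.19 and -0.18 and was called lower at -0.23 ± 0.07 (adjusted p 0.0358). Rplp2 read 0.31, 0.31, 0.31 and 0.30 and was called higher at 0.31 ± 0.06 (adjusted p 0.00827). With spike-in centring all stood above 0, at 0.42 for Rplp0, 0.60 for Rplp1 and 1.11 for Rplp2, in the same order of Rplp2 over Rplp1.

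**Figure D2:**
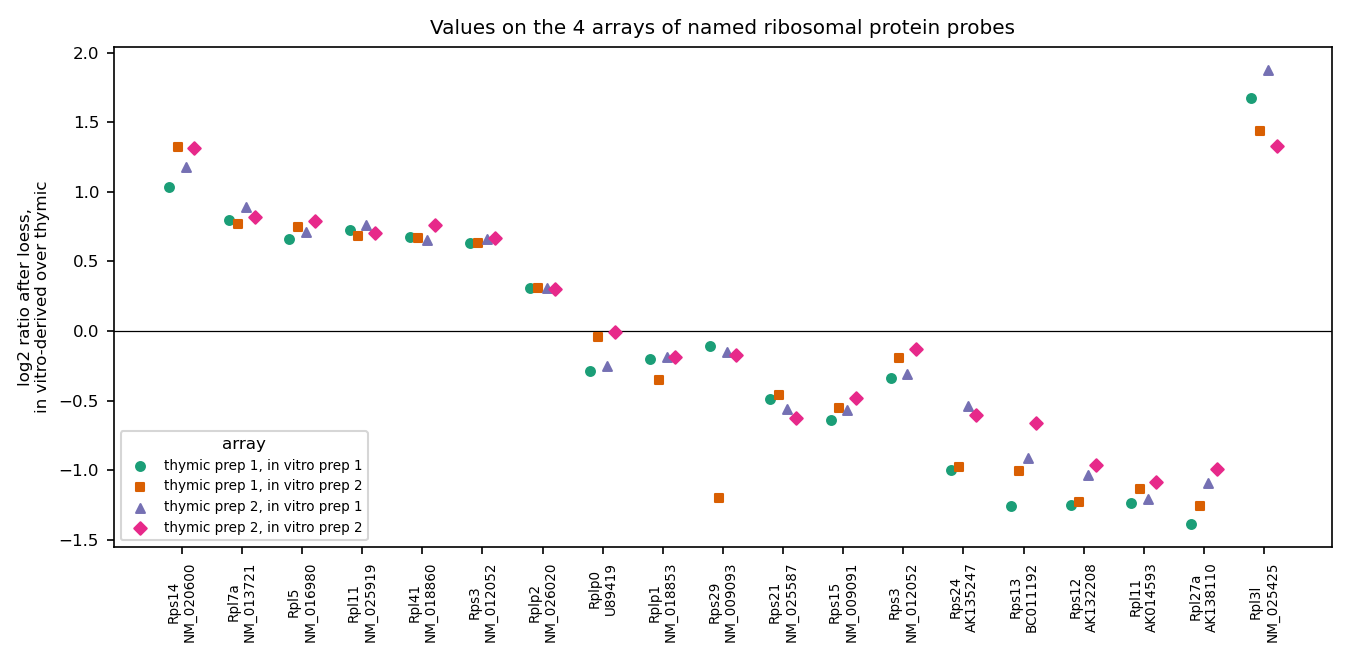
Log2 ratio after loess (vertical axis, in vitro-derived over thymic) on each of the 4 arrays, 1 marker per array, for named ribosomal protein probes given with the target sequence of the array design. Arrays lay close together for most probes, except for Rps29, where array 2 read -1.20 and the others -0.17 to -0.11; with spike-in centring Rps21, Rplp0 and Rplp1 stand above 0.

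The rule also took in paralogues of ribosomal proteins. Rpl3l, the paralogue of Rpl3 found mainly in muscle, had the largest difference of all members on a dim probe (log2 intensity 7.74). It read 1.67, 1.44, 1.88 and 1.33, a difference of 1.58 ± 0.14 or 2.98-fold (adjusted p 0.000578), with channel levels of 7.02 and 6.88 (log2) in the thymic preps and 8.81 and 8.25 in the in vitro preps. Rpl3 itself was also called higher, at 0.42 ± 0.10 (adjusted p 0.0214). Rps27l, a p53-inducible paralogue of Rps27, read 0.46, 0.73, 0.34 and 0.58 and was called higher at 0.53 ± 0.11 (adjusted p 0.011).

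Rpl22l1, the paralogue of Rpl22, was called lower on both of its probes: the bright one read -0.52, -0.38, -0.54 and -0.37 and differed by -0.45 ± 0.07 (adjusted p 0.00535), with 0.11 under spike-in centring, and the dim one differed by -0.32 ± 0.07 (adjusted p 0.0143). Rpl22, whose loss blocks the development of alpha beta T cells, was called higher on its bright probe at 0.25 ± 0.06 (adjusted p 0.0196). Rpl7l1 was called lower on its brighter probe, at -0.52 ± 0.06 (adjusted p 0.00138) and -0.46 under spike-in centring, but stood at 0.14 under median centring. Its other probe was not called, at -0.20 ± 0.07. Rpl36al, a copy of Rpl36a without introns, was not called at -0.03 ± 0.06, nor were the probes of Rps19bp1, which encodes a protein that binds Rps19 and is no ribosomal protein, at -0.16 ± 0.06 and -0.10 ± 0.06. Leaving these 9 probes out, 49 of 126 were called higher and 21 lower, with a median of 0.13.

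With loess the calls still sorted by brightness. Of 76 members at a mean log2 intensity of 16 and over, 46 were called higher and 2 lower, with a median of 0.27. Of 29 members between 14 and 16, 1 was called higher and 10 lower (median -0.10), of 14 between 10 and 14 none was called higher and 7 lower (median -0.28), and of 16 below 10, 4 were called higher and 5 lower (median 0.03). Of 127 non-members at 16 and over, 64 were called higher (50.4%) and 27 lower (21.3%), against 60.5% and 2.63% of the members there, with a median of 0.22. Of the 890 non-members between 14 and 16, 34.3% were called higher and 32.8% lower (median 0.03). Of the 8830 between 10 and 14, 30.9% were called higher and 33.2% lower (median -0.0050). Of the 17290 below 10, 23.8% were called higher and 21.5% lower (median 0.03). The 16 members in that class had shares of 25% and 31.25%. Ribosomal protein probes were 76 of the 203 tested probes at 16 and over (37.4%), against 0.495% of all tested probes, so the loess curve there rests in part on them. With the members given no weight in the curve, 56 were called higher and 20 lower, with a median of 0.15.

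**Figure D3:**
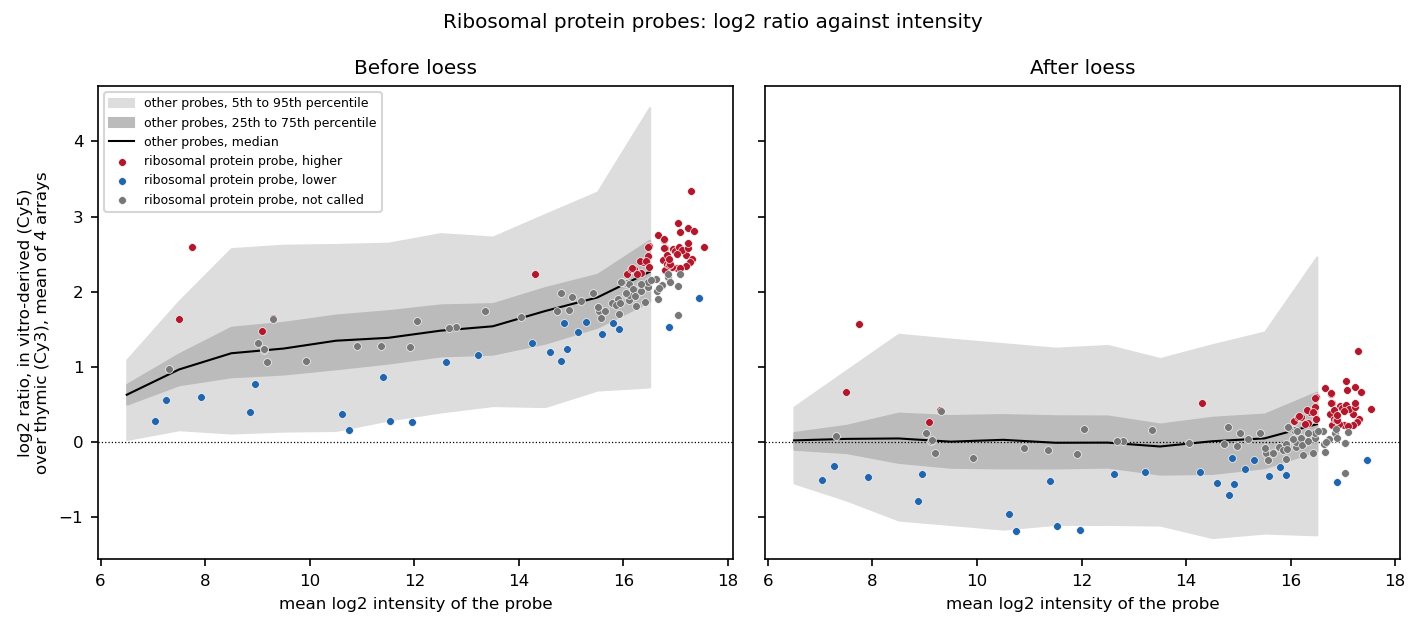
Mean log2 ratio over 4 arrays (vertical axis, in vitro-derived over thymic) against the probe's mean log2 intensity (horizontal axis), before loess on the left and after it on the right; points are ribosomal protein probes coloured by their call after loess, and bands and line give percentiles of the other tested probes in bins of 1 log2 unit with at least 20 probes. Before loess the ratio of members and others rises with intensity, and after loess the brightest members lie mostly above 0.

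Across the 135 members the correlation of the difference with intensity was 0.33 (Pearson) and 0.54 (Spearman) after loess, against -0.01 and -0.02 over the 27137 other tested probes. Before any normalization it was 0.75 and 0.82 in the members and 0.40 and 0.53 in the others. All these points share the same 4 arrays and dyes. Before normalization the members' median log2 ratio of Cy5 over Cy3 was 2.00 and that of all tested probes 1.09.

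Control transcripts spiked into both RNAs at known ratios gave a measure that uses no cellular RNA. The 10 spike-ins read 1.33 ± 0.28 (mean and SD over the 10) above their expected log2 ratio before normalization, and 0.24 below it after loess (-0.24). Their offset also rose with intensity, with a correlation of 0.41 over 10 controls, but it varied with the expected ratio too. The control expected at 3.32 (log2 intensity 14.48) read 1.09 above that, and the one expected at -3.32 (log2 intensity 14.76) read 1.90 above. The parts of intensity and expected ratio in the offset were not separated. The brightest control stood at a log2 intensity of 15.29, below most members. No spike-in therefore measures the dye balance at the brightness of the 76 brightest members. The scanner software had taken the Cy5 signal from the low-gain scan for 105 of the 135 tested members on all 4 arrays, and no member spot was saturated.

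With spike-in centring 94 members were called higher and 11 lower, against 21.1% higher and 46.6% lower over all tested probes. With median centring 124 were called higher and 4 lower, against 59.2% and 11.6%. These shares are not matched for brightness: the median log2 intensity was 16.14 over all 137 members and 8.88 over all tested probes. Of the 51 members called higher with loess, 50 were also called higher with spike-in centring, the exception being a dim Rps4x probe. This overlap was largely set by the scaling, as 46 of the 51 lay at a log2 intensity of 16 and over. In that class spike-in centring moved the members' median from 0.27 to 0.99 and that of non-members from 0.22 to 0.92. Of the 24 called lower with loess, 10 were also called lower with spike-in centring, and 1, Rplp1, was then called higher. The 4 probes called lower under loess, spike-in and median centring alike were those of Rpl11, Rpl27a, Rpl35a and Rps12 designed on cDNA clones. The Rpl35a probe, like that of Rpl11, lies in the gap of a split mRNA probe by the design's coordinates, and read -0.66, -0.52, -0.48 and -0.37 with loess, -1.04 with spike-in centring and -0.44 with median centring.

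**Figure D4:**
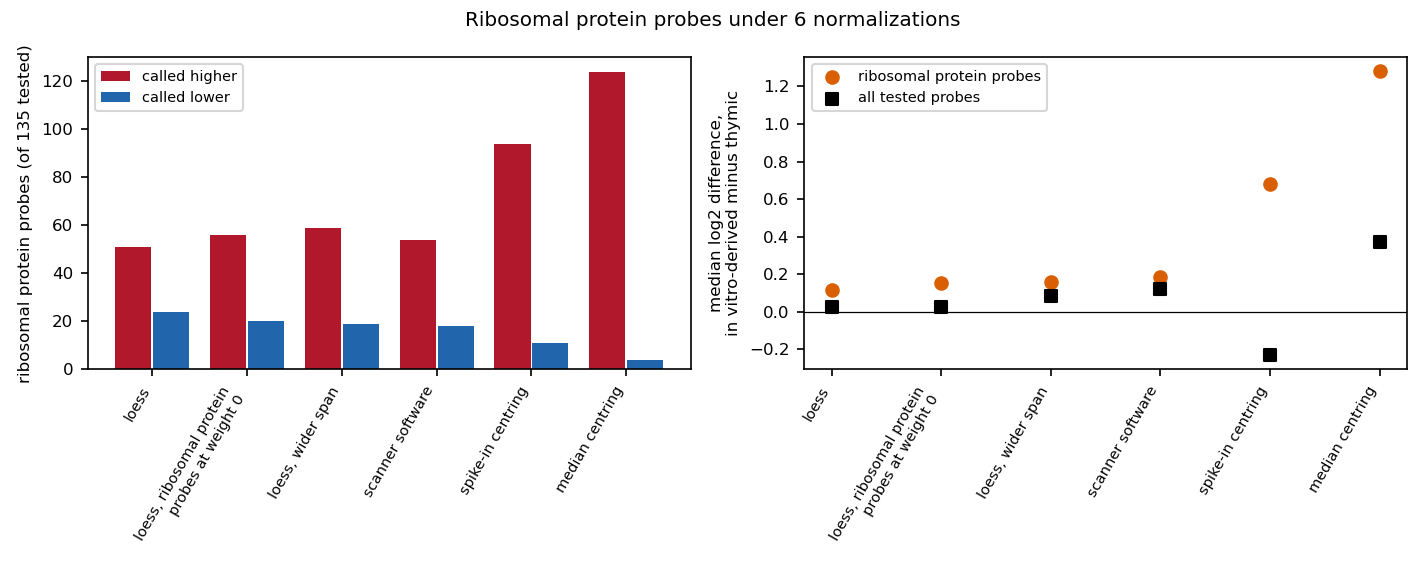
Left, ribosomal protein probes called higher (red) and lower (blue) in the in vitro-derived cells under 6 normalizations; right, the median log2 difference of the 135 tested ribosomal protein probes (circles) and of all tested probes (squares). Among these 6 the count called higher runs from 51 with loess to 124 with median centring, and the members' median lies above that of all probes under each. With the authors' deposited table, which is not drawn, 34 were called higher (25.2%), against 23.4% over all probes tested with it.

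Probes of the same ribosomal protein gene often disagreed. Of the 41 genes with at least 2 tested probes, 26 (63.4%) differed between their brightest and dimmest probe in a test on the within-array difference, against 40.5% of 5966 genes on the array. The brightest probe was the higher one in 22 of the 26, against 1256 of the 2414 differing genes on the array. These comparisons are not matched for how far apart the probes lie in brightness. Probes called in opposite directions occurred in 6 of the 41 genes (14.6%), against 4.07% of the 5966. These genes were Rpl11, Rps13, Rps18, Rps3, Rpl7 and Rps24. Of 17 genes whose bright and dim probes target different sequence records 12 differed, and of 24 whose probes target the same record 14 differed. The count of 26 was 10 without thymic prep 1, 12 without thymic prep 2 and 14 without in vitro prep 1, and the count of 6 was 3 and 1 without either thymic prep, in fits that have 1 residual degree of freedom fewer.

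The largest disagreement was in Rpl11. The mRNA probe given above stood at 0.72 ± 0.06, and the probe designed on clone AK014593 read -1.24, -1.13, -1.21 and -1.09 and differed by -1.17 ± 0.07 (adjusted p 0.000183). The difference between the probes was 1.89 ± 0.08 (log2, SE), with an adjusted p of 0.000233. In the array design's own coordinates the clone probe lies inside the gap of the split mRNA probe, that is, in a stretch of genome that the mRNA probe skips.

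Rpl27a, Rps12 and Rps13 showed the same form. The Rpl27a mRNA probe was not called at 0.16 ± 0.07, and its clone probe read -1.39, -1.26, -1.09 and -0.99 and was called lower at -1.18 ± 0.11 (adjusted p 0.000748), a difference between probes of 1.34 ± 0.11 (adjusted p 0.00123). The Rps12 mRNA probe was not called at 0.06 ± 0.06, and its clone probe read -1.25, -1.23, -1.04 and -0.97 and was called lower at -1.12 ± 0.09 (adjusted p 0.000533), a difference of 1.18 ± 0.09 (adjusted p 0.00106). The Rps13 mRNA probe was called higher at 0.37 ± 0.06 (adjusted p 0.00421), and its clone probe read -1.26, -1.00, -0.91 and -0.66 and was called lower at -0.96 ± 0.14 (adjusted p 0.00386), a difference of 1.33 ± 0.15 (adjusted p 0.00268). These clone probes were all far dimmer than the mRNA probes of their genes except in Rpl27a, whose mRNA probe had a log2 intensity of 13.35 against 10.75 for the clone probe.

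In Rps18 the brightest mRNA probe stood at 0.53 ± 0.07, the other mRNA probe at 0.42 ± 0.08 (adjusted p 0.0102), and a dim clone probe at -0.46 ± 0.09 (adjusted p 0.00957), the brightest and dimmest differing by 0.98 ± 0.07 (adjusted p 0.000764). Rps24, another gene mutated in Diamond-Blackfan anaemia, had a bright mRNA probe that was not called at -0.13 ± 0.06 and dim clone probes on either side of it. One clone probe read 0.28, 0.49, 0.40 and 0.57 and was called higher at 0.43 ± 0.09 (adjusted p 0.011), and the other read -1.00, -0.98, -0.54 and -0.61 and was called lower at -0.78 ± 0.14 (adjusted p 0.00743). The brightest and dimmest differed by 0.65 ± 0.15 (adjusted p 0.0221).

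Disagreement was also present between probes for 1 messenger record. For Rps3, which lies at the mRNA entry channel, the brighter probe read 0.64, 0.63, 0.66 and 0.67 and was called higher at 0.65 ± 0.06 (adjusted p 0.000649). The dimmer probe, itself at a log2 intensity of 15.29, read -0.34, -0.19, -0.31 and -0.13 and was called lower at -0.24 ± 0.08 (adjusted p 0.047). Their arrays did not overlap, and the probes differed by 0.89 ± 0.08 (adjusted p 0.00136). Both stood above 0 with spike-in centring, at 1.38 and 0.28.

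For Rpl19 the brighter probe was called higher at 0.52 ± 0.08 and the dimmer one was not called at -0.23 ± 0.11, a difference of 0.75 ± 0.08 (adjusted p 0.0022). For Rpl7, 2 probes were called higher, at 0.59 ± 0.06 and 0.47 ± 0.06, and the dimmest was called lower at -0.21 ± 0.07 (adjusted p 0.0455), a difference of 0.68 ± 0.06 (adjusted p 0.00156). For Rpl7a the difference was 0.63 ± 0.06 (adjusted p 0.00201). In 4 genes the dimmer probe was the higher one: Rpsa by -0.44 ± 0.09 (brightest minus dimmest), Rps6 by -0.36 ± 0.07, Rpl31 by -0.35 ± 0.08 and Rpl7l1 by -0.32 ± 0.08.

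**Figure D5:**
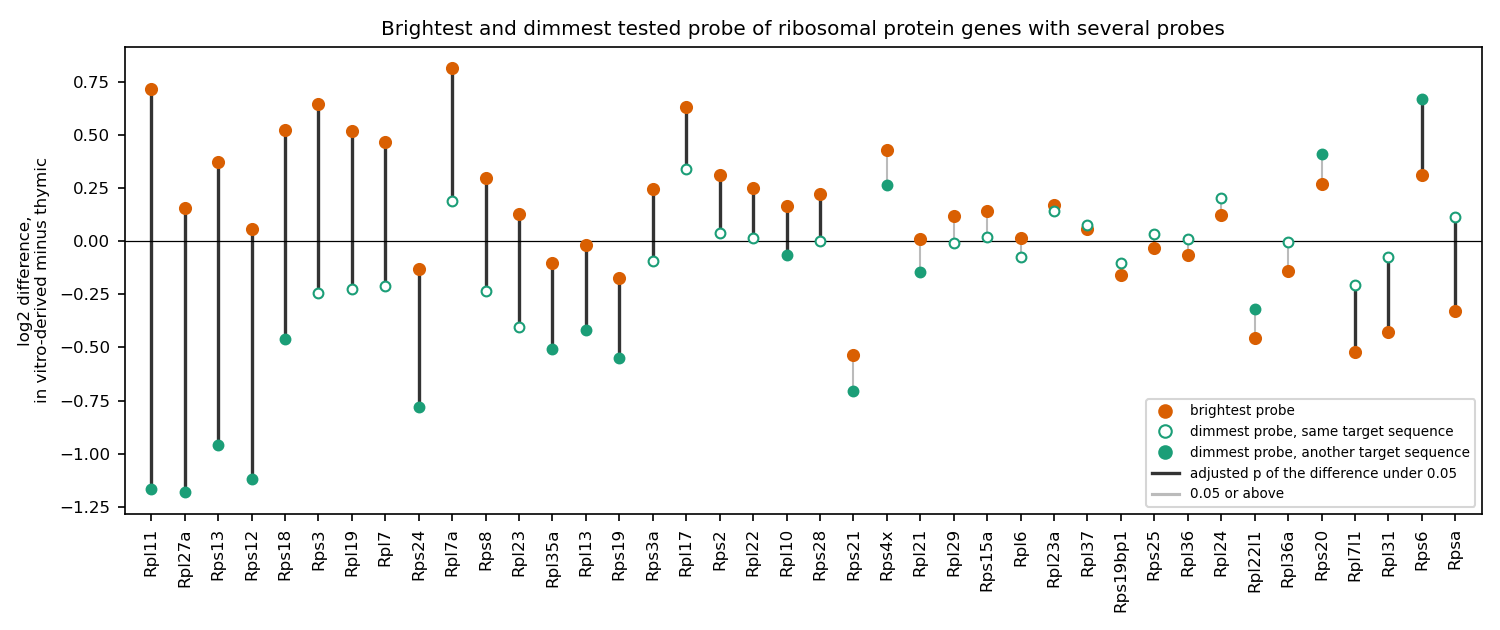
Log2 difference (vertical axis, in vitro-derived minus thymic, after loess) of the brightest (orange) and dimmest (green) tested probe of 40 ribosomal protein genes with several probes, joined by a dark line where the adjusted p of their difference was under 0.05; filled green points target another sequence record than the brightest probe. In 21 of the 25 dark pairs drawn the brightest probe is the higher one, with Rpl11 the widest at 1.89. Over all genes on the array it is the higher one in 1256 of 2414 differing genes.

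By target, the 115 tested probes designed on RefSeq messengers were called higher in 46 cases and lower in 14, with a median of 0.13. The 20 tested probes designed on clones or expressed sequence tags were called higher in 5 cases and lower in 10, with a median of -0.25. Their median log2 intensity was 9.96, with the untested ones included, against 16.32 for the RefSeq targets, so that target and brightness move together and cannot be told apart here. Not well above background, and not tested, were 1 clone probe of Rps19 and 1 of Rps2.

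In vitro prep 2 read above in vitro prep 1 in 106 of the 135 tested members, by a median of 0.07 (log2), and the stromal markers were also higher in prep 2. Over all tested probes it did so in 14178 of 27272, by a median of 0.007. The part of stromal cells in this was not tested. Without in vitro prep 2 the members' median log2 difference was 0.06, against 0.02 over all tested probes. Without thymic prep 1 it was 0.11, against 0.02 over all tested probes, and without thymic prep 2 it was 0.13, against 0.03.

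Other genes of the translation machinery are given by lists chosen with earlier results of these data known. Their counts with loess stand beside 26.7% called higher and 25.6% lower over all tested probes. Among 26 tested probes of elongation and ribosome-associated factors 9 were called higher and 2 lower, with a median of 0.11, the largest being Eef2k, the kinase that inhibits elongation factor 2, at 1.43 ± 0.06 and 0.82 ± 0.07, and Gnb2l1 (Rack1), a scaffold on the small subunit, at 0.87 ± 0.06. A dimmer Eef2k probe was not called at 0.19 ± 0.07, nor was the other Gnb2l1 probe at 0.05 ± 0.07. Fau, a ribosomal protein made as a fusion and named outside the rule, stood at 0.11 ± 0.06 on its brightest probe and was not called. Among 44 tested probes of initiation factors 6 were called higher and 9 lower (median 0.00), the largest being Eif2a at 0.95 ± 0.08, Eif4a2 at -0.92 ± 0.12 and Eif5b at -0.85 ± 0.07. The other Eif2a probe was not called at 0.15 ± 0.11, nor was 1 further Eif5b probe at -0.12 ± 0.09.

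Among genes of ribosome biogenesis 36 of 58 tested probes were called lower and 7 higher with loess, with a median of -0.36, against 25.6% called lower over all tested probes. With spike-in centring 28 were called lower (48.3%) and 8 higher (13.8%), against 46.6% and 21.1% over all tested probes. With median centring 35 were called higher and 5 lower, against 59.2% and 11.6% over all tested probes. Rpo1-4, a subunit of RNA polymerase I, differed by -0.97 ± 0.06 and Utp20, a factor of small subunit processing, by -0.92 ± 0.08, while Wdr12, a factor of large subunit maturation, was higher at 1.04 ± 0.10. The list's median was -0.26 with spike-in centring and 0.34 with median centring, against -0.23 and 0.37 over all tested probes. The list was brighter than these, with a median log2 intensity of 11.34 (untested probes included) against 8.88. Non-members of the ribosomal protein group between 10 and 14 had medians of 0.09 and 0.69 under these scalings, and -0.0050 with loess, above the list under each.

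Among 37 tested probes of regulators of ribosomal protein messengers 13 were called higher and 4 lower (median 0.21), against 26.7% and 25.6% over all tested probes. Of the 13, 2 passed the filter only through Cy5, which fixed their direction. These were the probes of Mycn, a transcription factor of growth genes. One was not well above background in Cy3 on any array and the other was so on 2 of 4 arrays, so that no size is given. Frap1, the gene of mTOR, differed by 0.86 ± 0.07 on 1 probe, while a brighter one was not called at -0.05 ± 0.06. Rps6kb1, the S6 kinase, was called higher on 2 probes, at 0.83 ± 0.12 and 0.80 ± 0.07, and not called on 2 others, at 0.21 ± 0.07 and 0.05 ± 0.06. Gas5, a host gene of small nucleolar RNAs whose transcript also starts with a pyrimidine tract, was called lower on its dimmer probe at -0.87 ± 0.08 and not called on the brighter one at 0.05 ± 0.06, the same split between a bright and a dim probe as above. Of 120 tested probes of mitochondrial ribosomal proteins, which serve a separate ribosome, 29 were called higher and 21 lower with a median of 0.06. The shares over all tested probes were 26.7% and 25.6%. The largest differences of this list were in both probes of Mrps6, at -1.43 ± 0.06 and -1.37 ± 0.06, and Mrps15 at -0.70 ± 0.08.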

How the data were processed

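RNA of 2 thymic and 2 in vitro-derived CD8+ preps was hybridised on 4 arrays, per the labels, and the arrays share 1 slide and 1 scan, per the file headers. Per the file headers, Agilent Feature Extraction 9.5.1.1 wrote the spot intensity values that the authors deposited, on a linear scale. The series table that the authors deposited holds log10 ratios of Cy5 over Cy3. Its 4 column medians are 0, and it correlated with the scanner software's ratio at 0.9999 or more on each array. No source used here names the genome build behind the design's probe positions, and none is printed.

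Mean signals were background-corrected by normexp (offset 50) and normalized by loess (span 0.3, control spots at weight 0) in limma 3.58.1 under R 4.3.3, and turned into log2 ratios. Before this, 122 to 174 marked spots per array were removed. Spots marked for their background alone were kept where that background was under 1% of the signal, a choice made after the data were seen, since removing all of them took 12 bright member probes out of the test. A probe entered the test where the software called it well above background on every array in Cy3 or in Cy5. The 4 log ratios were turned into 2 prep values of each kind for lmFit and eBayes, which left 2 residual degrees of freedom beside a prior of 3.18. Benjamini-Hochberg adjustment ran over all tested probes, with calls at an adjusted p under 0.05, and the brightest minus the dimmest probe of each gene was tested in the same way. Intensity in the text is the log2 mean of both channels. The number of arrays limits the precision. The fit was tested on simulated data. The design's target of 115 member probes is a RefSeq messenger.

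The members and lists were chosen with earlier results of these data known. Named are genes with probes called in both directions or among the 10 largest probe differences, the 10 highest, 10 lowest and 10 brightest probes, stalk genes and Rpsa, paralogues and name matches, members not well above background, and the 3 largest calls of each other list. Rps29, Rpl3, Rpl22, Rpl35a, Fau and further probes of named genes were added after their values were seen. The closing section gives the alternatives tried. Some genes that enter the counts are not reported here by name.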

Additional observations from a re-analysis of the deposited data

Results flagged for a closer look

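In 9 of the 135 tested members 1 of the 4 arrays lay further from the nearest other than Dixon's critical value allows, a limit that chance passes in about 1 in 20 groups, and 8 of the 9 are given here. The widest gap was in Rps29, where array 2 read -1.20 and the others -0.17 to -0.11. Rpl23 read -0.18 on array 4 and 0.21 to 0.26 on the others, and Rplp1 read -0.35 on array 2 and -0.20 to -0.18 on the others. In the other cases the gap was small: Rpl41 read 0.76 on array 4, Rps27a read 0.37 and Rpl7 0.55 on array 1, and the probes of Rpl6 read -0.11 and -0.032 on array 1.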

How the results depend on the processing

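Spike-in centring, a background model fitted on all spots, and leaving out every background-marked spot were chosen after seeing the data. The members' counts moved most with the scaling: 51 called higher and 24 lower with loess became 124 and 4 with median centring and 94 and 11 with spike-in centring (over all probes 59.2% higher and 11.6% lower, and 21.1% and 46.6%), while the median of 0.12 became 1.28 and 0.68. That median was 0.19 with the scanner software's processed signals, 0.055 with the deposited table, 0.055 without every background-marked spot and 0.22 for the brightest probe per gene. The count called lower was 8 for the brightest probe per gene and 13 for the mean over probes, with fewer units tested. Genes with probes called in both directions, 6 with loess, were 3 with marked spots kept, 10 with arrays taken as independent and 3 with the background model on all spots. Genes whose brightest and dimmest probes differed, 26 with loess, were 15 with the processed signals and 15 with the deposited table. Leaving out 1 array or 1 prep gave 8152 to 14058 calls over all probes, 23 to 53 members called higher, 12 to 28 lower, a median of 0.059 to 0.14, 1 to 8 genes with both directions and 10 to 22 with differing probes. Among single probes, the sign turned in 17 cases with median centring (Rpl19 0.99, Rpl22l1 0.71, Rpl36al 1.02, Rpl7 0.86, Rpl7l1 0.14 and 0.35, Rplp0 1.03, Rplp1 1.20, Rps15 0.51, Rps19 0.48, Rps19bp1 0.55 and 0.56, Rps21 0.35 and 0.81, Rps24 1.19, Rps3 0.88 and Rpsa 0.87) and 9 with spike-in centring (Rpl22l1 0.11, Rpl36al 0.42, Rpl7 0.25, Rplp0 0.42, Rplp1 0.60, Rps21 0.21, Rps24 0.58, Rps3 0.28 and Rpsa 0.26). It turned in 10 with the brightest probe standing for the gene (Rpl11 0.72, Rpl19 0.52, Rpl27a 0.16, Rpl7 0.47, Rps12 0.057, Rps13 0.37, Rps18 0.53, Rps24 -0.13, Rps3 0.65 and Rpsa -0.33) and 8 with the mean over probes (Rpl11 -0.22, Rpl27a -0.51, Rpl7 0.28, Rps12 -0.53, Rps13 -0.29, Rps18 0.16, Rps24 -0.16 and Rps3 0.20). Except where a construction is named, the cause was not tested. No paired analysis was possible because each array already pairs preps of both kinds and the prep numbers link no thymic prep to 1 in vitro prep.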
